A study of Mus musculus with 6 samples.

Results

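Transcript levels of the subunits of the MSL and NSL complexes were followed in purified spermatogenic cells of male mice with and without Rnf8. The 10 genes were chosen by name: Kat8, Msl1, Msl2, Msl3, Kansl1, Kansl2, Kansl3, Mcrs1, Phf20 and Wdr5. All 10 of 10 had a transcript cluster on the Affymetrix MoGene 1.0 ST array, reached log2 6 on some array, and were tested among 17925 genes, out of 19938 genes measured. Where a gene had several clusters, as 3 of the members did, the cluster of highest mean over the 6 arrays was taken. The groups were RNF8-KO round spermatids (KO RS, 1 array), wild-type round spermatids (WT RS, 1 array), RNF8-KO pachytene spermatocytes (KO PS, 2 arrays) and wild-type pachytene spermatocytes (WT PS, 2 arrays), all on a C57BL/6 background. Round spermatids are the haploid cells that follow meiosis, and pachytene spermatocytes are in meiotic prophase. Per the labels, cells were pooled from 3 to 4 males and separated by gravity sedimentation in albumin, with a stated enrichment above 95%. The sources used here give neither the ages of the mice nor the design of the knockout allele. No label ties the paired arrays to separate animals or preparations, so each p-value rests on the scatter of these arrays alone, and that scatter may be technical.

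KAT8 (also called MOF) is the MYST-family acetyltransferase that places acetyl groups on lysine 16 of histone H4. It works in a pair of alternative assemblies: the MSL complex, where MSL1 is the scaffold, MSL2 a RING-finger ubiquitin ligase and MSL3 a chromodomain protein, and the NSL complex, which is held together by KANSL1 and also holds KANSL2, KANSL3, MCRS1, PHF20 and WDR5. In Drosophila the MSL complex raises transcription of the male X chromosome. In spermatids, acetylation of histone H4 accompanies the opening of chromatin before histones are replaced by protamines. RNF8 is a ubiquitin ligase of chromatin, known from the response to DNA breaks.

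Values are log2 of the deposited intensity, and a difference is on that scale. The lowest member value on any array was 8.19, above the lower quartile of the arrays, which lay between log2 6.15 and 6.28. The cluster of the targeted gene, which also lists the readthrough gene Gm28043, was at 7.50 in KO RS and 7.78 in WT RS. In pachytene cells it was at 7.86 and 8.05 in KO, below the 8.51 and 8.86 in WT. It is not known here whether that cluster lies in the deleted part. All 13 round spermatid markers were higher on both RS arrays than on the 4 PS arrays, but Prm1 and Prm2 by only 0.22 and 0.23. In the limma test described below, 11 of the 13 passed as higher, without Prm1 and Prm2, against 17.8% of all genes. Prm1 was at 13.20 in KO RS against 13.18 on KO pachytene array 1. The mean of the 13 markers was 12.10 in KO RS and 12.15 in WT RS, against 11.29 and 10.83 in KO PS and 11.03 and 10.87 in WT PS. Of the 12 pachytene markers, 9 were lower on both RS arrays than on all PS arrays. Among all tested genes, 24.1% lay higher on both RS arrays than on all PS arrays and 26.4% lay lower. None of the markers stayed below log2 6 on all arrays. Leydig cell markers, of which 6 of 7 were lower on both RS arrays than on all PS arrays, averaged between 7.23 and 7.40 in RS and between 8.76 and 9.09 in PS, and Sertoli cell markers (9 of 11 lower) between 8.33 and 8.62 in RS and between 9.04 and 9.26 in PS. Markers of spermatogonia (2 of 10 higher and 1 lower) averaged between 8.02 and 8.28 in RS and between 8.03 and 8.23 in PS. Markers of peritubular and vessel cells (1 of 6 higher) averaged between 8.25 and 8.56 in RS and between 7.89 and 8.06 in PS. The 1 that lay higher was Dcn, with a difference of RS from PS of 2.86, and the median difference of that list was -0.09. Those of macrophages and blood (3 of 5 higher) averaged between 7.20 and 7.30 in RS and between 6.85 and 6.93 in PS. The part of all these markers in the differences between the cell types was not tested. In such bulk fractions, fewer cells of a type and less RNA per cell cannot be told apart.

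Round spermatids differed from pachytene spermatocytes in 5 of the 10 genes. Msl3, the chromodomain subunit of MSL and the only X-linked member, rose 3.06-fold. Kansl3 and Kansl2 of the NSL complex fell by 1.02 and 0.90 on the log2 scale. The ubiquitin ligase gene Msl2 and the NSL scaffold gene Kansl1 fell less, by 0.46 and 0.39. Kat8 itself, Msl1, Mcrs1, Phf20 and Wdr5 did not pass the test. The test was limma on all 6 arrays with genotype as a covariate and Benjamini-Hochberg adjustment over all genes, at a threshold of 0.05. In that fit 17.8% of all tested genes passed as higher in RS and 17.1% as lower, 34.9% in all, against 1 higher and 4 lower of the 10 members. The median difference of the members was -0.11, and that of all genes -0.06.

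**Figure D1:**
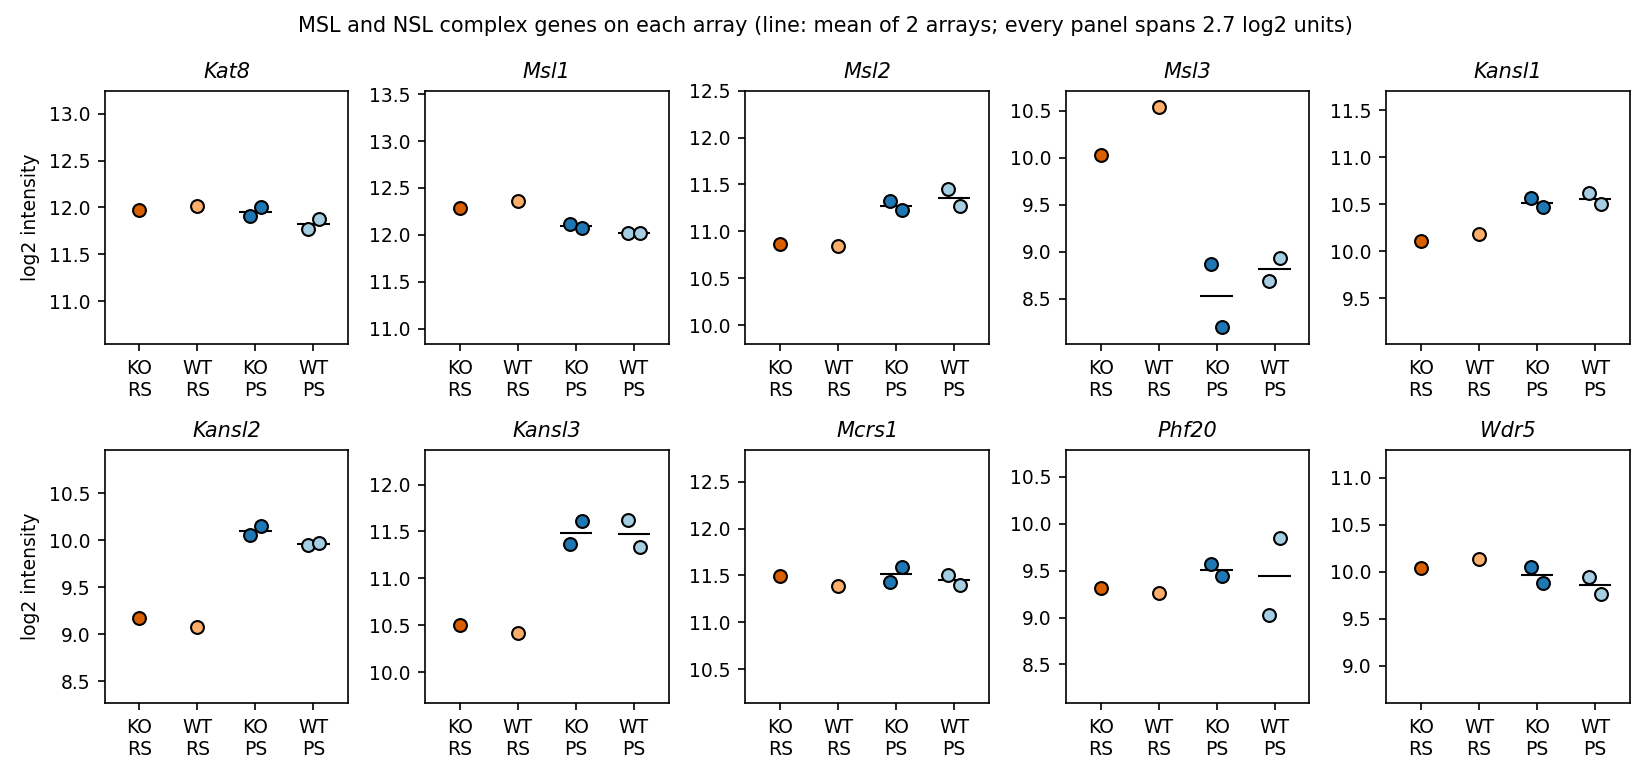
Each panel shows 1 gene, with the log2 intensity of each array as a point (KO RS, WT RS, KO PS and WT PS from left to right) and a line at the mean of 2 arrays. Panels share the same span of the axis. The RS points of Msl3 lie above all its PS points, those of Kansl2, Kansl3, Msl2 and Kansl1 lie below, and the points of Kat8 stay between 11.77 and 12.02.

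The catalytic subunit gene Kat8 was at 11.97 in KO RS and 12.02 in WT RS, against 11.91 and 12.01 in KO PS and 11.77 and 11.87 in WT PS. The groups overlapped, since the higher KO PS array lay between both RS arrays. The difference of RS from PS was 0.11 (SE 0.11, 2 against 4 arrays, 95% interval -0.14 to 0.36), with an adjusted p of 0.516 in limma.

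Of the MSL subunits, Msl3 was at 10.03 in KO RS and 10.54 in WT RS, against 8.87 and 8.19 in KO PS and 8.68 and 8.94 in WT PS. Both RS arrays lay above all PS arrays, and the lowest value was that of KO pachytene array 2. The difference was 1.61 (SE 0.19, 2 against 4 arrays, adjusted p of 0.000546 in limma). Msl3 is the member whose cluster changed most, so the bases before its annotated start are shown here, from RefSeq on GRCm38.p6, chrX:168673873-168674122, minus strand, with matches to the GC box (GGGCGG, either strand) in capitals.
Msl3: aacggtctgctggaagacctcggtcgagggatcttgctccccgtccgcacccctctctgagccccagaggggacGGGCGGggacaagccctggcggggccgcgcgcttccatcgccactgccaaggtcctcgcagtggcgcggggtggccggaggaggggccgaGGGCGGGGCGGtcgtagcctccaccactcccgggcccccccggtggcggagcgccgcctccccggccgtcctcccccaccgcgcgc
It holds 3 GC boxes, 2 of which overlap, and 76.8% of its bases are G or C.

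Msl1, which encodes the scaffold that binds the other MSL subunits, was at 12.28 in KO RS and 12.36 in WT RS, against 12.12 and 12.07 in KO PS and 12.02 in both WT PS arrays. Both RS arrays lay above all PS arrays, but the difference of 0.26 (SE 0.10) did not pass in limma (adjusted p = 0.088). Msl2 was at 10.87 in KO RS and 10.85 in WT RS, against 11.32 and 11.23 in KO PS and 11.45 and 11.27 in WT PS. Here both RS arrays lay below all PS arrays. The difference of -0.46 (SE 0.11) had an adjusted p of 0.0135 in limma, which became 0.108 without the KO RS array, 0.221 without the WT RS array and 0.0531 without WT pachytene array 1.

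Of the NSL subunits, Kansl3 was at 10.50 in KO RS and 10.42 in WT RS, against 11.36 and 11.61 in KO PS and 11.62 and 11.34 in WT PS. Every RS value lay below every PS value. The difference was -1.02 (SE 0.13, 2 against 4 arrays, adjusted p of 0.000718 in limma), a 2.03-fold change. Kansl2 was at 9.18 in KO RS and 9.08 in WT RS, against 10.05 and 10.15 in KO PS and 9.95 and 9.97 in WT PS. The RS and PS arrays again did not overlap. The difference was -0.90 (SE 0.10, adjusted p of 0.00044 in limma), a 1.87-fold change.

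The sequences before the starts of these genes are shown beside that of Kat8, as the pair of NSL genes that fell most and the enzyme gene that did not pass. All are from RefSeq on GRCm38.p6: Kansl3 at chr1:36369182-36369431 on the minus strand, Kansl2 at chr15:98534270-98534519 on the minus strand and Kat8 at chr7:127912267-127912516 on the plus strand. Capitals mark the GC box (GGGCGG), the CCAAT box and the half-site of the cyclic AMP response element (TGACG), on either strand.
Kansl3: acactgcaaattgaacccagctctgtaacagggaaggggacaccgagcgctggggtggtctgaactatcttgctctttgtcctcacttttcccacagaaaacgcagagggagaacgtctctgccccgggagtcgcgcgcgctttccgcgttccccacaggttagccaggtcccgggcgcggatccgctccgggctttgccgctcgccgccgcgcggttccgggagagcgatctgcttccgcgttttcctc
Kansl2: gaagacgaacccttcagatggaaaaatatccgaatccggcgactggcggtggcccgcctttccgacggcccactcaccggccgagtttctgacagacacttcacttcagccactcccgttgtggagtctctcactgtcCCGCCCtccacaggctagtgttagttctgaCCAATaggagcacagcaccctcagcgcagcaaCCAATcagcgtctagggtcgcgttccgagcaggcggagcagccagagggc
Kat8: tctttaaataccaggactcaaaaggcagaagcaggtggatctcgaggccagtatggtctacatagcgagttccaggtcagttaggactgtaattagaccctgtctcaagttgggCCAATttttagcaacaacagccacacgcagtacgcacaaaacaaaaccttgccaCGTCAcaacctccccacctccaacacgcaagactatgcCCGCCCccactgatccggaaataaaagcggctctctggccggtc
The Kansl3 window holds none of these letters, that of Kansl2 holds 2 CCAAT boxes and 1 GC box, and that of Kat8 has 1 match to each of the 3 motifs.

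Over all members, 9 of 10 windows of 250 bases held a GC box, 4 a CCAAT box and 3 the half-site. Of the 27025 genes with a window in the table, 32.9% held a GC box, 34.5% a CCAAT box and 17.9% the half-site. No member window held the full cyclic AMP response element TGACGTCA (1.62% of genes), the TATA box TATAAA (13%) or the YY1 letters AAGATGGC (1.59%). The full element contains the half-site. G and C made up 51.2% to 80.4% of the member windows, against a median of 52% over all genes. These matches describe letters in 1 window a gene, the one listed first where a gene has several.

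Kansl1 was at 10.11 in KO RS and 10.18 in WT RS, against 10.56 and 10.47 in KO PS and 10.62 and 10.51 in WT PS. All RS values lay below all PS values, with a difference of -0.39 (SE 0.10, adjusted p of 0.0208 in limma). That call was lost without either RS array (adjusted p = 0.22 without KO RS and 0.204 without WT RS in limma) and without WT pachytene array 1 (0.0771). It was also lost in the fit with 4 groups (0.0578) and, narrowly, when the mean of its clusters was used (0.0509). Mcrs1, a subunit that NSL shares with the INO80 remodelling complex, was at 11.50 in KO RS and 11.39 in WT RS, against 11.43 and 11.59 in KO PS and 11.50 and 11.40 in WT PS. These ranges overlapped, with a difference of -0.04 (SE 0.11, 95% interval -0.29 to 0.21). Wdr5, a WD-repeat adaptor also found in histone H3 lysine 4 methyltransferases, was at 10.04 in KO RS and 10.13 in WT RS, against 10.05 and 9.88 in KO PS and 9.95 and 9.76 in WT PS, a difference of 0.18 (SE 0.12) that did not pass in limma (adjusted p = 0.32). Phf20, which carries Tudor and PHD domains, was at 9.32 in KO RS and 9.27 in WT RS, against 9.57 and 9.44 in KO PS and 9.02 and 9.85 in WT PS. Its WT PS arrays lay 0.83 apart, more than any other pair of replicates among the members, and the 95% interval of its difference ran from -0.67 to 0.31.

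Counting arrays alone, 2 members (Msl3 and Msl1) lay higher on both RS arrays than on all PS arrays and 4 (Msl2, Kansl1, Kansl2 and Kansl3) lay lower. Among all tested genes the same patterns held for 24.1% and 26.4%.

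**Figure D2:**
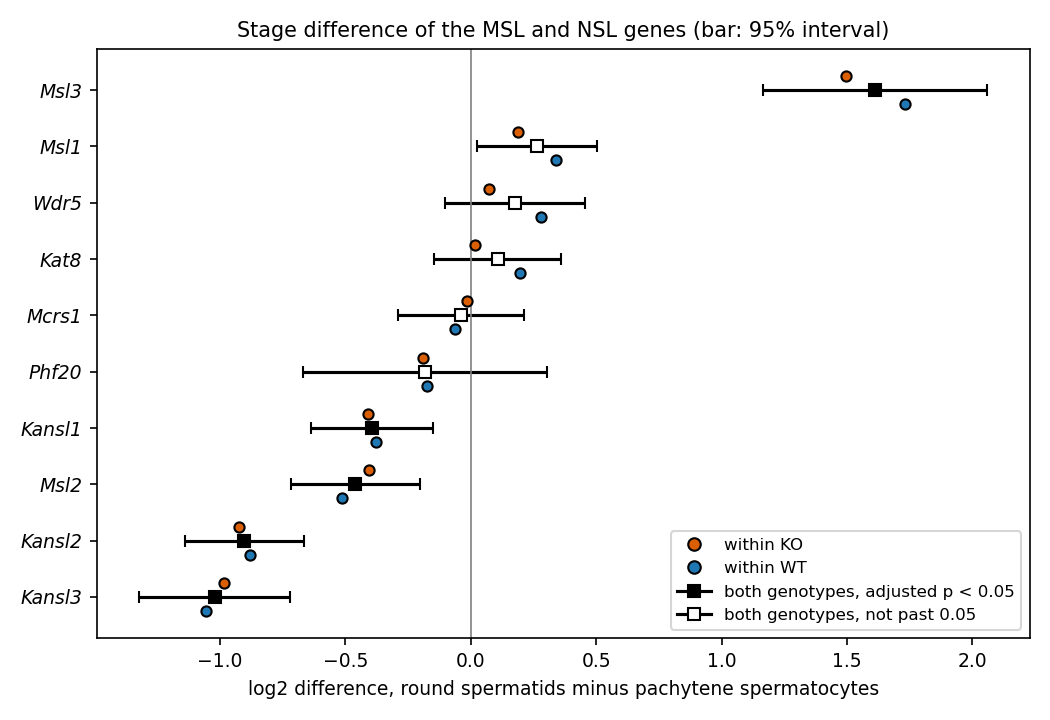
Log2 differences of RS from PS, with squares and 95% intervals for both genotypes together (filled where the adjusted p is below 0.05), and circles for the difference within KO and within WT. Msl3 lies at 1.61 and Kansl3 at -1.02, and for every member the KO and WT circles lie on the same side of 0.

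Within each genotype the same 3 genes passed. Msl3 rose 2.82-fold in KO (log2 SE 0.29, 1 against 2 arrays, adjusted p of 0.0177 in limma) and 3.32-fold in WT (log2 SE 0.29, adjusted p of 0.00817). Kansl3 fell by 0.98 in KO (adjusted p of 0.0243 in limma) and by 1.06 in WT (0.014). Kansl2 fell by 0.92 in KO (adjusted p of 0.0173 in limma) and by 0.88 in WT (0.0142). Among all tested genes 8.36% passed as higher and 7.18% as lower in KO (15.5% in all), and 11.5% as higher and 8.45% as lower in WT (20.0% in all), against 1 member higher and 2 lower in each genotype. In this fit the lone RS arrays are assumed to vary like the pachytene pairs. Each of these tests gives the same values as the test over both genotypes without the other RS array. They are therefore not separate from that test. Without WT pachytene array 1 only Msl3 still passed in each genotype, and without WT pachytene array 2 Kansl2 was lost in both and Kansl3 in KO.

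No member passed for RNF8-KO against wild type in any tested comparison, and none of the 10 differed by 2-fold in the round spermatid arrays. In pachytene cells limma called 0 of 17925 genes (0.0%, with 430 genes at an unadjusted p under 0.05, none of them a member), and the adjusted p was 1 for each of the 10. The differences of KO PS from WT PS lay between -0.28 for Msl3 and 0.14 for Kansl2, with a median of 0.06 over the members and 0.03 over all genes. The intervals give the sizes compatible with these arrays: for Kat8 the difference was 0.13 (SE 0.15, n = 2 each, 95% interval from limma -0.22 to 0.48), and for Msl3 it was -0.28 (SE 0.24, 95% interval from limma -0.84 to 0.28). Kat8, Msl1 and Kansl2 were higher on both KO PS arrays than on both WT PS arrays, a pattern seen in 14.9% of all genes, and no member was lower on both (10.2% of all genes). Msl3 overlapped, as KO pachytene array 1 lay between the WT arrays and array 2 lay 0.68 below it. Without KO pachytene array 2 the Msl3 difference was 0.06.

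In round spermatids there was 1 array per genotype, so the difference has no replicate check. Of the 10 genes, 5 lay higher and 5 lower in KO, with 9 of them within 0.11 of WT in either direction. Msl3 lay 0.51 lower in KO RS than in WT RS, the largest gap of the members. That gap was smaller than the 0.68 between its KO PS replicates and larger than the 0.25 between its WT PS replicates. Markers of some other cell types also differed between these arrays: all 11 Sertoli cell markers were higher in KO RS than in WT RS (median 0.26), as were all 6 of peritubular and vessel cells (0.32), 9 of 10 of spermatogonia (0.30) and 5 of 7 of Leydig cells (0.16). Of the round spermatid markers, 4 of 13 were higher (median -0.03). The same held for 5 of 12 pachytene markers (median -0.04) and 2 of 5 of macrophages and blood (-0.0008). The median over all tested genes was also above 0, at 0.05, and the share of them higher in KO RS was not counted. Over all clusters the log2 median was 7.70 in KO RS and 7.62 in WT RS, and the upper quartile 9.44 and 9.52. The part of all these markers in the differences between the KO and WT arrays was not tested. At least 2-fold differences between these 2 arrays were seen in 69 genes (0.385% of those tested), 63 lower (0.351%) and 6 higher (0.0335%) in KO, and in 0 members. The median difference was -0.01 for the members and 0.05 for all genes.

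**Figure D3:**
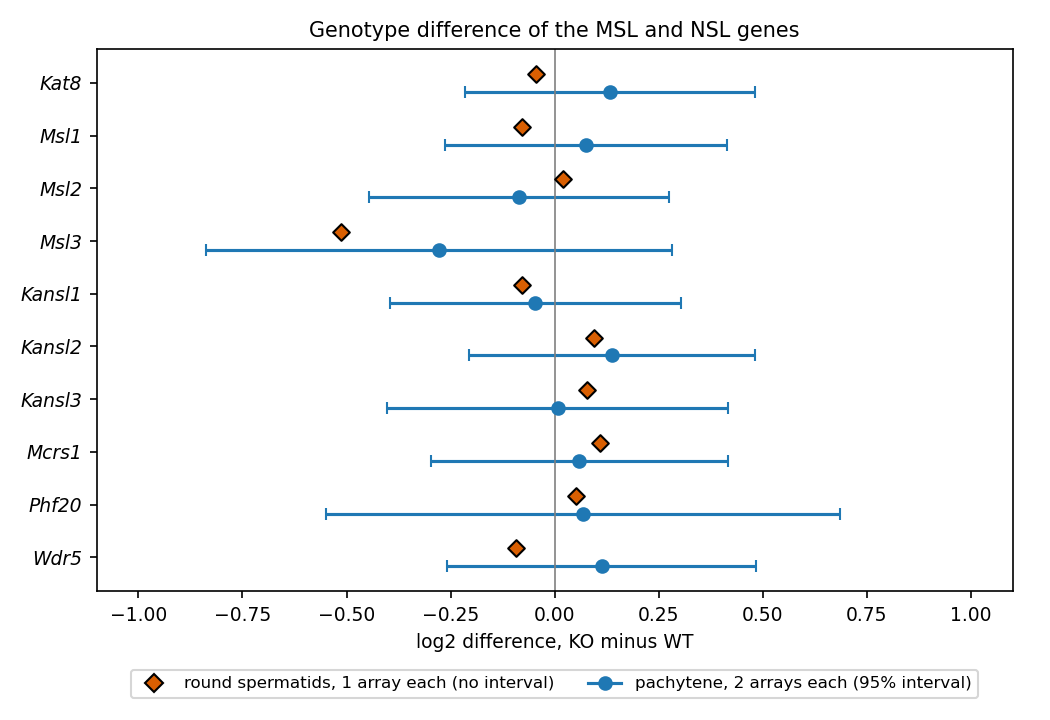
Log2 differences of KO from WT for each member, with diamonds for round spermatids (1 array each, no interval) and circles with 95% intervals for pachytene spermatocytes (2 arrays each). All 10 pachytene intervals span 0, and the Msl3 diamond at -0.51 lies apart from the other diamonds.

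Over both cell types, in the additive limma fit, 0 genes passed for KO against WT (0.0%, with 979 genes at an unadjusted p under 0.05). Differences of the members lay between -0.36 for Msl3 (SE 0.18, 95% interval -0.78 to 0.06, adjusted p = 0.892) and 0.12 for Kansl2 (SE 0.10, adjusted p = 0.892). For Kat8 it was 0.07 (SE 0.10, 95% interval -0.16 to 0.31). The interaction, which asks whether the genotype difference differs between the cell types, passed in 0 genes in limma (0.0%, with 130 genes at an unadjusted p under 0.05), and its values lay between -0.23 for Msl3 (SE 0.41) and 0.10 for Msl2 (SE 0.27) among the members.

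Of 7 further partners and paralogs of these complexes, 3 passed as higher and 3 as lower in RS (17.8% and 17.1% of all genes), with a median of -0.16 (-0.06 over all genes). Without the WT RS array 0 passed as higher and 2 as lower. Ogt, the O-GlcNAc transferase gene, and Hcfc1, the host cell factor gene, encode NSL subunits and are X-linked like Msl3. Ogt was at 8.54 in KO RS and 9.56 in WT RS, against 8.10 and 7.78 in KO PS and 8.27 and 8.17 in WT PS. Both RS arrays lay above all PS arrays, and the difference was 0.97 (SE 0.18, adjusted p of 0.00425 in limma). Hcfc1 was at 8.78 in KO RS and 9.07 in WT RS, against 8.40 and 7.97 in KO PS and 8.35 and 8.05 in WT PS, a difference of 0.74 (SE 0.16, adjusted p of 0.00852 in limma). Without the WT RS array neither passed (0.60 for each, adjusted p = 0.103 and 0.164 in limma). The Ogt value in KO RS was 1.02 below that in WT RS, which put it among the 63 genes at least 2-fold lower in KO RS. Between the same arrays, most Sertoli, peritubular and spermatogonial markers were higher in KO, and their part in the Ogt difference was not tested. The interaction of Ogt, at -0.74 (SE 0.29), did not pass in limma.

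Msl3l2, an autosomal MSL3-like gene, was at 10.69 on both RS arrays, against 10.39 and 10.35 in KO PS and 10.40 and 10.39 in WT PS. It rose by 0.30 (SE 0.10, adjusted p of 0.0479 in limma), a call that held in 7 of 14 alternative settings. Dhx9, the mammalian counterpart of the fly MSL helicase maleless, fell by 1.77 (SE 0.12), with 8.97 in KO RS and 9.11 in WT RS against 10.67 to 10.93 in PS. Wdr5b, a paralog of Wdr5, fell by 1.05 (SE 0.13), with 7.57 in KO RS and 7.69 in WT RS against 8.52 to 8.92 in PS. Wdr5 itself lay between 9.76 and 10.13 on all arrays. Kansl1l, a paralog of Kansl1, fell by 0.38 (SE 0.12, adjusted p of 0.0474 in limma). That call was lost without either RS array and without either WT pachytene array. It was also lost with the replicate number as a block and in the fit with 4 groups.

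Each of the 4 other MYST acetyltransferase genes passed as lower (17.1% of all genes did), with a median of -0.75 (-0.06 over all genes). Kat6a was at -0.82, Kat7 at -0.80, Kat5 (Tip60) at -0.70 and Kat6b at -0.60, while Kat8, the member of this family in MSL and NSL, was at 0.11. Without the WT RS array only Kat7 still passed, and without the KO RS array Kat6b did not. Whether Kat8 differs from these genes was not tested. Of the genes of MRG-domain proteins, which are relatives of MSL3, X-linked Morf4l2 rose by 0.76 (SE 0.16), a call lost without either RS array, and Morf4l1 at -0.15 did not pass. Mrgbp, whose product binds MRG-domain proteins and is no relative of MSL3, fell by 0.93 (SE 0.11). Of these 3 genes 1 passed as higher and 1 as lower (17.8% and 17.1% of all genes). Their median was -0.15 (-0.06 over all genes). Of 6 deacetylases reported to act on lysine 16 of histone H4, Sirt1 fell by 1.44 (SE 0.19) and Hdac3 by 0.40 (SE 0.11), the second lost without either RS array, without WT pachytene array 2 and in the fit with 4 groups. The other 4, among them Hdac2 at -0.17 and Hdac8 at 0.08, did not pass. Thus 2 of the 6 passed as lower and 0 as higher (17.1% and 17.8% of all genes). The median of the 6 was -0.10 (-0.06 over all genes).

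Of 9 genes of methyltransferases that work with WDR5, 1 passed as higher and 5 as lower (17.8% and 17.1% of all genes), with a median of -0.52 (-0.06 over all genes). Kmt2d fell by 1.77 and Kmt2b by 1.19, Setd1b by 0.60, and Dpy30, a small core subunit, rose by 0.63. Without the KO RS array 2 of the 9 passed as lower and 1 as higher, and without the WT RS array 2 and 0. The calls of Setd1b, Setd1a and Rbbp5 were lost without either RS array, and that of Dpy30 without the WT RS array. Without WT pachytene array 2, 3 passed as lower. In the INO80 complex, which shares Mcrs1, 5 of 12 tested genes passed as lower and 0 as higher (17.1% and 17.8% of all genes), with a median of -0.37 (-0.06 over all genes). The falls included the complex members Nfrkb at -1.46, Yy1 at -1.29, Actr5 at -1.24 and the ATPase gene Ino80 at -1.03, each of which passed in all 14 alternative settings. Mcrs1 at -0.04 did not pass. No gene of these lists passed for KO against WT in pachytene cells or over both cell types.

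**Figure D4:**
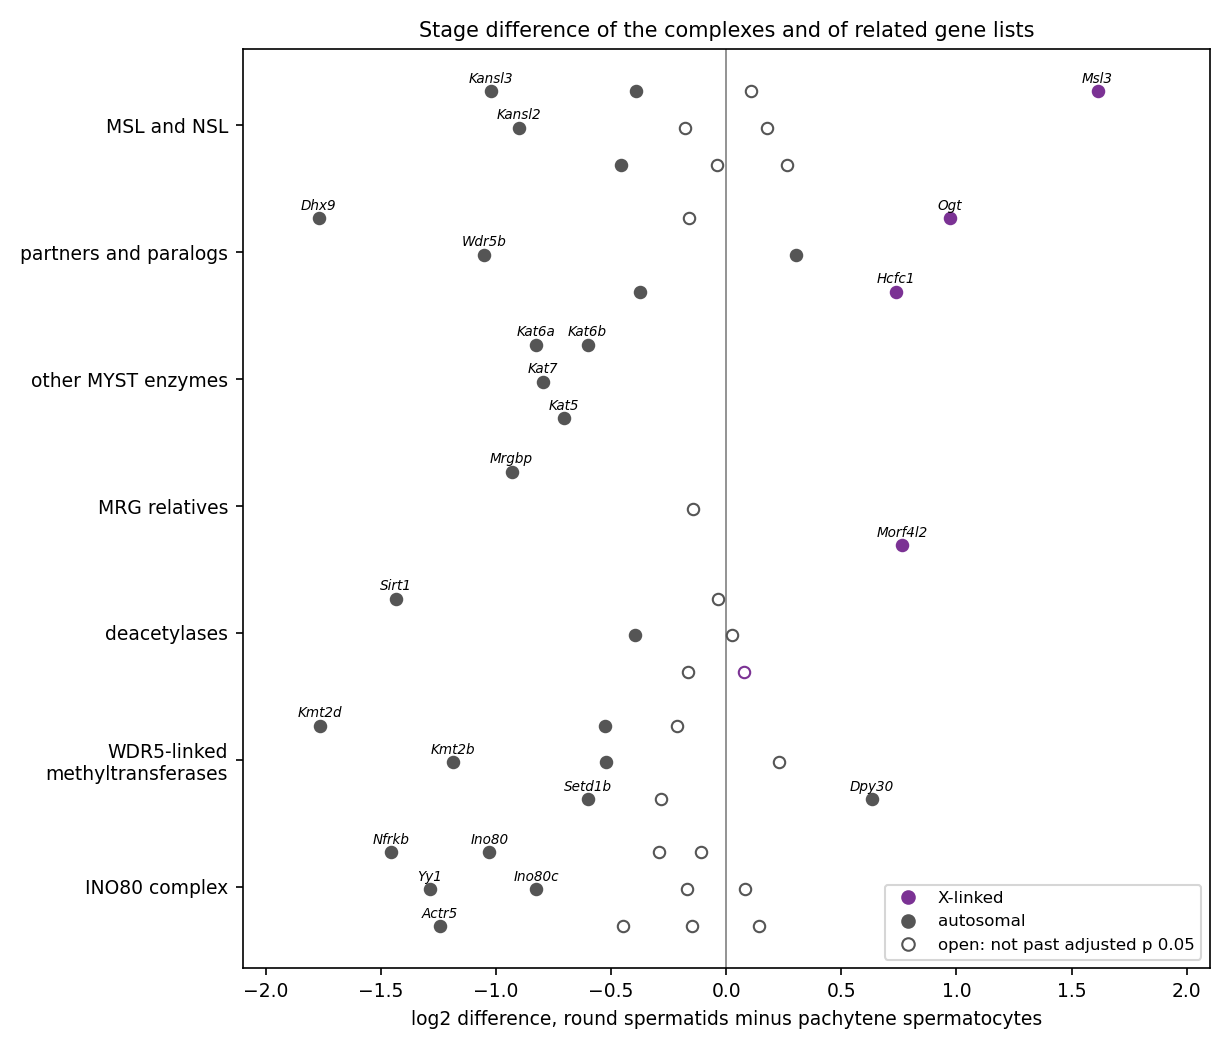
Log2 differences of RS from PS for the members and the related gene lists, 1 point per gene, purple for X-linked and grey for autosomal genes, filled where the adjusted p is below 0.05. Of the 5 X-linked genes, Msl3, Ogt, Hcfc1 and Morf4l2 lie between 0.74 and 1.61 and Hdac8, which did not pass, at 0.08, and the MYST genes other than Kat8 lie between -0.82 and -0.60.

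Of 624 tested X-linked genes, 251 (40.2%) passed as higher in RS and 14 as lower, with a median difference of 0.20 against -0.06 for autosomal genes. Msl3 was well up in that range: 68 X-linked genes, and 287 of all tested genes, had a larger rise. Toward the other end, 717 genes had a more negative difference than Kansl3 and 945 a more negative one than Kansl2. By the root mean square difference of log2 values centred on each gene's own mean over the 6 arrays, the genes most like Msl3 were Uxt (0.05), Zfp711 (0.05) and Iqca1l (0.07), with 1 clone-named gene passed over. Uxt and Zfp711 are X-linked and Iqca1l is on chromosome 5. The genes most like Kat8 by the same measure were Rnf182 (0.03), Chmp2a (0.03) and Ston2 (0.03). These likenesses rest on 6 arrays of 4 groups and are descriptions.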

How the data were processed

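RNA was measured on 6 arrays of round spermatids and pachytene spermatocytes, grouped by sample title. The intensity values deposited by the authors are on a linear scale. Per the submitters' processing notes they came from Affymetrix Expression Console 1.1 with RMA, and the sources used here do not give its options. Log2 was taken here of the deposited values. Median intensity per array lay between 197.3 and 217.7. The number of arrays limits the precision.

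The array has 35556 transcript clusters: 21789 carry 1 gene symbol in the platform annotation, 1621 carry several, and 12146 are unlisted there. Of those with 1 symbol, 21695 were found by gene identifier in RefSeq's GRCm38.p6 table, with 0 symbols updated. Each of 19938 genes was represented by its cluster of highest mean log2, and the 17925 that reached log2 6 on any array were tested with limma 3.58.1 in R 4.3.3 (lmFit, eBayes), with Benjamini-Hochberg adjustment over all of them. An additive fit gave the stage and genotype effects and a fit with 4 groups gave the effects within a stage or genotype. Scripts were tested on simulated data.

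Members and lists were chosen with earlier results of these data known. The rule names all members, up to 4 genes of each related list with the largest stage difference (and Msl3l2, Wdr5b, Hcfc1 and Ogt), and the 3 genes most like Kat8 and like the member that changed most. Kansl1l, Setd1a and Rbbp5, which passed as lower in RS, are also named, outside that rule. Ino80e, which shares its cluster with Doc2a, and the markers Rhox5, Insl3, Lhcgr, Hbb-bs and Hba-a1 had no single-gene cluster and were not used. Same-numbered pachytene arrays tended to deviate in opposite directions (correlation of -0.23 across genes), so the numbers were not taken to pair the arrays. Alternatives covered the filter, the normalization, the prior, a replicate block, the choice of cluster, a pseudocount of 16 and leaving out each array.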

Additional observations from a re-analysis of the deposited data

How the results depend on the processing

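Across 14 alternatives, Msl3, Kansl2 and Kansl3 kept their direction and passed for round spermatids against pachytene spermatocytes in every one, with differences of 1.48 to 1.77, -0.93 to -0.88 and -1.08 to -0.95. Msl2 passed in 10 and Kansl1 in 8. Without the KO RS array the comparison gives the same values as that within WT, and without the WT RS array those within KO. These alternatives and the tests within each genotype are therefore not separate checks. With the replicate number, which is all the arrays share, as a block 3 members passed, not 5, since Msl2 (adjusted p = 0.0617 in limma) and Kansl1 (0.0903) were lost. With the mean of a gene's clusters, and in the fit with 4 groups, 4 passed, without Kansl1. When 1 array was left out, 3 to 6 members and 2786 to 8849 genes passed in that comparison, with 2786 without the WT RS array and 3577 without the KO RS array. Msl1 passed without KO pachytene array 1 (adjusted p = 0.0267 in limma) and with a trended and robust prior (0.02). Within WT, leaving out 1 array gave 1 to 4 members and 1404 to 5511 genes, and within KO 1 to 3 members and 1646 to 3883 genes. Without a WT pachytene array the gene counts were 1640 (array 1) and 1404 (array 2) in WT and 1646 in KO, and without either KO pachytene array 5511 passed in WT.

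For KO against WT, no alternative called a member. Over both cell types, 2 genes passed with the trended and robust prior, 2 with the replicate block, 1 with a pseudocount of 16, 1 in the fit with 4 groups, and 0 to 21 with 1 array left out. In pachytene cells 43 passed with the replicate block, 88 with the knockout numbers crossed (chosen after the data were seen), and 0 to 2 with 1 array left out. The interaction passed 1 gene with the block. In round spermatids the fit that lends the lone arrays the spread of the pachytene pairs passed 0 genes.

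Differences that changed sign were all uncalled. With 1 array left out, those for KO against WT over both cell types ranged from -0.0047 to 0.075 for Msl1, -0.094 to 0.013 for Msl2, -0.043 to 0.12 for Kansl3, -0.18 to 0.30 for Phf20 and -0.027 to 0.11 for Wdr5, and in pachytene cells from -0.18 to 0.0081 for Msl2, -0.62 to 0.061 for Msl3, -0.10 to 0.0097 for Kansl1, -0.13 to 0.15 for Kansl3, -0.019 to 0.14 for Mcrs1 and -0.35 to 0.48 for Phf20. Round spermatids against pachytene cells ranged from -0.59 to 0.24 for Phf20 in WT, and in KO from -0.032 to 0.069 for Kat8, -0.093 to 0.065 for Mcrs1 and -0.013 to 0.16 for Wdr5. The interaction ranged from -0.57 to 0.10 for Msl3 with 1 array left out, and over its 11 alternatives it also changed sign for Kansl1 (-0.087 to 0.037), Kansl2 (-0.091 to 0.016), Kansl3 (-0.070 to 0.21), Mcrs1 (-0.029 to 0.13) and Phf20 (-0.43 to 0.40). With the mean of a gene's clusters Phf20 for KO against WT was -0.11 over both cell types and -0.11 in pachytene cells, in the fit with 4 groups Msl1 was -0.0013, and Kat8 in KO round spermatids against pachytene cells was -0.075 after further quantile normalization and -0.032 with the replicate block. The cause was not tested.

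Comparisons within one genotype or of the interaction had no value without a round spermatid array they need.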

Other observations

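For 3 members there were further clusters. One naming the same accessions as Kansl2 gave 9.01 in KO RS and 8.93 in WT RS, against means of 9.99 in KO PS and 9.87 in WT PS (n = 2 each), a difference of -0.96 (limma over all clusters, adjusted p = 0.000423), close to the -0.90 of the cluster used. A dimmer Kansl1 cluster was at 6.24 in KO RS and 6.71 in WT RS, against 6.75 and 6.35 in KO PS and 6.98 in both WT PS arrays. KO lay below WT in both cell types there, by 0.44 on average (SE 0.13, adjusted p = 0.739 in limma), and its stage difference of -0.29 did not pass (adjusted p = 0.144 in limma). A dim Phf20 cluster ranged from 6.77 to 8.63 over the pachytene arrays, and another lay between 7.12 and 7.29 on all arrays.

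Of the 8 tested genes nearest to Msl3 in the order of the X chromosome, 3 passed as higher in round spermatids, against 40.2% of all X-linked genes. Toward one side, Prps2 lay at 0.04 without passing, Frmpd4 and Tlr8 were too dim to judge (5.71 to 6.36 on all arrays, near the floor of log2 6), and Tmsb4x, the thymosin beta 4 gene, rose by 0.61 (adjusted p = 0.0254 in limma). Toward the other, Hccs, a cytochrome haem lyase gene, rose by 0.68 (adjusted p = 0.00456 in limma), Mid1 lay at 0.28 and G530011O06Rik at 0.06 without passing, and 4933400A11Rik rose by 1.77 (adjusted p = 0.0228 in limma) with pachytene values spread from 7.03 to 9.87. These neighbours were chosen by position after the values of Msl3 were seen.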
